A study of Mus musculus with 6 samples.

Results

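The LDL receptor family was examined in mouse bone marrow neutrophils through 9 genes, Lrp5, Lrp6, Lrp1, Vldlr, Lrp8, Lrp10, Lrp12, Lrp4 and Sorl1, chosen by gene symbol. All 9 were found once each among the 52636 genes of the expression table. RNA was sequenced in 6 libraries of C57BL/6N mice aged 10 weeks. By their labels, 3 libraries came from WT mice and 3 from LRP5f/f/Lyz2Cre+ mice (called LRP5-KO in the series, KO here), whose floxed Lrp5 alleles are cut by a Cre recombinase placed in Lyz2. Lyz2 is active in neutrophils, monocytes and macrophages alike, so the deletion is myeloid and not neutrophil-specific. Whether the WT mice carried a floxed allele or Cre is not stated in the labels, and neither is whether each library is 1 mouse, so the p-values below measure the spread between these libraries, which may be technical. The labels describe isolation on a Percoll gradient, whereas the methods describe flow sorting by CD11b and Ly6G before RNA sequencing. Total reads ranged from 249841492 to 340580330 per library.

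Receptors of this family are single-pass membrane proteins that carry LDL receptor class A (LDLa) repeats, which bind ligands. In most members, though not in all, these lie next to β-propeller domains built of YWTD repeats. Most members carry lipoproteins, proteases or growth factors into the cell through clathrin-coated pits and hand them to endosomes. LRP5 and LRP6 are close homologs that act with Frizzled proteins as co-receptors for Wnt ligands and pass the signal to β-catenin through axin. The study asked how LRP5, set against LRP6, acts in neutrophils, in which it was studied as a transporter of polyunsaturated fatty acids.

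Because the members are homologs, reads of one could in principle be counted on another, and some of the longest stretches that they share are therefore shown. Sequences are from GENCODE M1 protein-coding transcripts on NCBIM37 (mm9), written 5′ to 3′ on the coding strand. In the Lrp5 and Lrp6 lines, capitals mark the longest run common to that pair, 22 bases in exon 7 of Lrp5 and exon 3 of Lrp6. In the Lrp4 line, from exon 26, capitals mark the 29 bases it has in common with Lrp5, the longest run of any pair of members. Lrp6 and Lrp4 have a run of 26 bases in common, which crosses an exon junction in both and is not shown.
Lrp5, chr19:3628415-3628444, minus strand: ccTCATGTACTGGACAGACTGGGGggagaa
Lrp6, chr6:134470582-134470611, minus strand: gtTCATGTACTGGACAGACTGGGGagaagt
Lrp4, chr2:91333901-91333930, plus strand: TCATGTACTGGACAGACTGGGGGGAGAACg
All of these windows are coding. The deposited read summary lists paired reads of 94 bases, whereas the methods give shorter single-end reads, and the labels name an mRNA kit where the methods name a stranded total RNA kit. Which is right is not settled by the sources used here, and the kit bears on the intron and ribosomal shares given below. At the listed length, a read that covers such a run reaches into bases where the homologs differ. Of the 5142 different 31-base words of Lrp5, 0 occurred in a protein-coding transcript of another gene, and of the 9739 words of Lrp6, 2 did, in Fbln7. Words shared with other genes were most frequent in Lrp8, at 37 of 7817.

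Sorl1 and Lrp10 dominated the family in these cells, and Lrp5 was among its low members. Levels are given in TPM, a unit in which the authors took out transcript length and gave every library 1 fixed total, so that genes can be set side by side. Read counts cannot be had from it, and the depth behind any 1 value is unknown. In the mean over the 6 libraries the order was Sorl1, Lrp10, Lrp8, Lrp4, Lrp6, Lrp5, Lrp1, Lrp12 and Vldlr, and all 9 members held the same rank in each library alone.

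**Figure D1:**
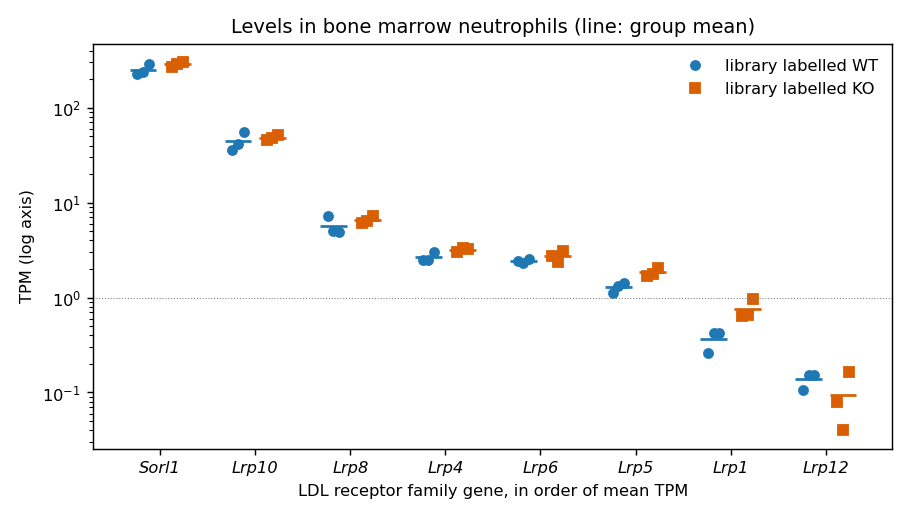
TPM on a log axis for 8 members in order of mean level, with circles for the 3 libraries labelled WT, squares for the 3 labelled KO and a line at each group mean; the dotted line is 1 TPM. Sorl1 lies above 200 TPM in every library, Lrp5 between 1.12 and 2.07 TPM, and Vldlr, listed at 0 in 5 libraries, is not drawn.

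Sorl1 encodes a sorting receptor that joins LDLa repeats to a Vps10 domain and moves cargo such as the amyloid precursor protein between endosomes and the Golgi. It was listed at 228.0, 236.0 and 286.7 TPM in WT replicates 1 to 3 and at 269.2, 287.8 and 300.6 TPM in KO replicates 1 to 3. The highest WT library lay inside the range of those labelled KO. Sorl1 alone made up 81.5% of the summed TPM of the family in the libraries labelled WT and 81.8% in those labelled KO, and ranked 326th of all genes listed.
Lrp10 encodes a divergent member that cycles between the Golgi, endosomes and the surface. Its levels were 35.9, 42.0 and 55.8 TPM in WT replicates 1 to 3 and 45.9, 47.8 and 51.9 TPM in KO replicates 1 to 3. The libraries labelled KO all lay between the lowest and the highest WT library. In each library Sorl1 exceeded Lrp10 by 5.14 to 6.36 times, and Lrp10 exceeded Lrp8 by 4.99 to 11.4 times.
Lrp8, also called apoE receptor 2, is known with Vldlr as a receptor for reelin in the brain. It was found at 7.19, 5.05 and 4.88 TPM in WT replicates 1 to 3 and at 6.08, 6.44 and 7.29 TPM in KO replicates 1 to 3, and the groups overlapped. Vldlr, the other reelin receptor and the uptake receptor for very low density lipoprotein in muscle and fat, was listed at 0 in 5 libraries and at 0.0038 TPM in KO replicate 1. The reelin receptors therefore stood at opposite ends of the order, with only Sorl1 and Lrp10 above Lrp8, and Vldlr last.
Lrp12, a divergent member with LDLa and CUB domains, was at 0.11, 0.15 and 0.15 TPM in WT replicates 1 to 3 and at 0.079, 0.040 and 0.16 TPM in KO replicates 1 to 3, without a separation of the groups.

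For each of the 8 pairs of neighbours in this order the first exceeded the second in 6 of 6 libraries. The order was made from the same libraries, so this describes how steady it was and is no test. Among the members above 1 TPM in the mean, the gap was narrowest between Lrp4 and Lrp6, at 0.35 ± 0.35 TPM (SD, n = 6). It was 0.014 TPM in WT replicate 1 and reached 0.97 TPM in another library, so that the ranges of Lrp4 and Lrp6 over the libraries overlapped. Lrp6 exceeded Lrp5 by 1.01 ± 0.25 TPM (SD, n = 6). Lrp5 exceeded Lrp1 by 2.13 to 4.33 times.

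The targeted gene, Lrp5, spans chr19:3584825-3686564 (NCBIM37, minus strand). Its transcript was at 1.12, 1.31 and 1.42 TPM in WT replicates 1 to 3 and at 1.68, 1.77 and 2.07 TPM in KO replicates 1 to 3. Every library labelled KO was thus above every library labelled WT, and the transcript was not lower where the label says that the gene was deleted. Directions given here for the libraries labelled KO rest on the labels. One TPM is given per gene over all its exons. The annotated Lrp5 transcript has 23 exons over 5172 bases, of which the longest makes up 9.03%. Loss of single exons from the RNA cannot be read from a TPM per gene and was not tested. The sources used here do not name the floxed exons, and the value checks the label no further. In the same libraries Lyz2, which holds the Cre, was at 13360 to 14027 TPM under the label KO and at 24797 to 26791 TPM under the label WT (log2 fold change −0.91, limma adjusted p = 0.0035).

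Lrp6 spans chr6:134396494-134516983, also on the minus strand. It was at 2.46, 2.30 and 2.52 TPM in WT replicates 1 to 3 and at 2.73, 2.35 and 3.09 TPM in KO replicates 1 to 3. KO replicate 2 fell within the WT range and the other libraries labelled KO lay above it. Lrp6 thus stood above its homolog in each library, and the ratio of Lrp6 to Lrp5 was 1.91 ± 0.24 (SD, n = 3) under the label WT and 1.48 ± 0.15 (SD, n = 3) under the label KO. In the libraries labelled WT it was 2.19, 1.76 and 1.77, and in those labelled KO 1.63, 1.32 and 1.49, without overlap. Lrp5 accounted for 31.4% to 36.3% of the summed TPM of the pair under the label WT and for 38.1% to 43.0% under the label KO. On the scale of log2 of the ratio of (TPM + 1), the difference was −0.20, KO minus WT (two-sided exact permutation p = 0.1, and 3 libraries against 3 allow none smaller). It was −0.33 with a pseudocount of 0.1, which weighs low genes more fully. Lrp5 and Lrp6 transcripts differ in GC content, at 58.6% and 46.0%, and with the trends of each library with GC content and length removed the difference was −0.12, an alternative chosen after the data had been seen.

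**Figure D2:**
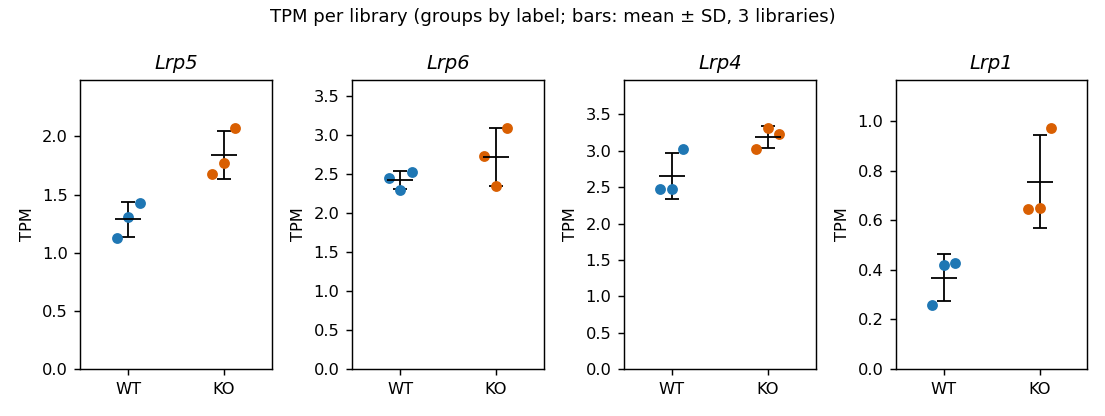
TPM per library for Lrp5, Lrp6, Lrp4 and Lrp1, with points for single libraries by label, a bar at the mean and whiskers of 1 SD (3 libraries a group); each axis starts at 0. The points of Lrp5, Lrp4 and Lrp1 do not overlap between the labels, whereas KO replicate 2 of Lrp6, at 2.35 TPM, lies among the WT points.

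Across the table, the libraries labelled KO and WT were compared with limma on log2(TPM + 1), a scale that understates the change of low genes, for 9775 genes whose mean reached 1 TPM. Of the 9 members 6 passed this filter, and 0 of them had an adjusted p under 0.05, where 52 genes, or 0.532% of those tested, did. Of these 6, Lrp5 was the 1 with an unadjusted p under 0.05. An unadjusted p under 0.05 with a higher level under the label KO was found for 14.4% of genes tested. With robust shrinkage in limma, or with its trend left out, the number of members called was also 0. The log2 fold changes of the 6 members were all above 0, as were those of 58.8% of genes tested. Their median was 0.20, beside 0.04 for all genes tested.
Lrp5 had a log2 fold change of 0.31 (95% interval 0.09 to 0.53, limma adjusted p = 0.136), or a TPM ratio of 1.43 of KO to WT. Lrp6 had 0.11 (95% interval −0.11 to 0.34, limma adjusted p = 0.496). The interval of Lrp6 therefore holds both no difference and one of the size of that of Lrp5.
Lrp4, at chr2:91297668-91354058, encodes the receptor for agrin at the neuromuscular junction and also binds sclerostin in bone. It was at 2.47, 2.48 and 3.02 TPM in WT replicates 1 to 3 and at 3.02, 3.31 and 3.23 TPM in KO replicates 1 to 3. The groups did not overlap, but the highest WT and the lowest KO library were nearly alike. Its log2 fold change was 0.20 (95% interval −0.01 to 0.41, limma adjusted p = 0.232).
Sorl1, Lrp8 and Lrp10 had log2 fold changes of 0.20, 0.19 and 0.14, with limma adjusted p of 0.270, 0.428 and 0.592. All of their intervals included 0.

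**Figure D3:**
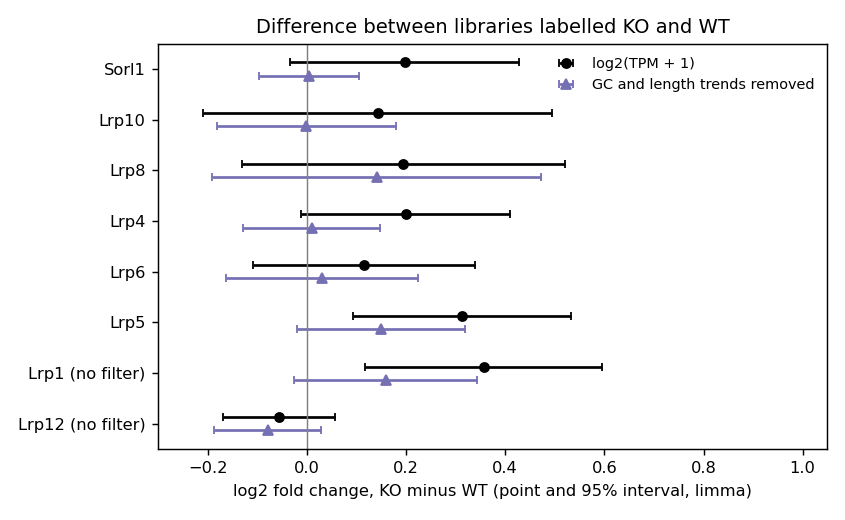
Log2 fold change, KO minus WT by label, of 8 members with the 95% interval from limma, as circles for log2(TPM + 1) and as triangles after removal of each library's trends with GC content and length; members marked "no filter" had a mean under 1 TPM. Lrp5 moves from 0.31 to 0.15 and Sorl1 from 0.20 to 0.0043 between the scales.

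Lrp1, Lrp12 and Vldlr were under the filter and were fitted only without one. Lrp1, at chr10:126975217-127058204, encodes a large endocytic receptor for apoE and for complexes of proteases with their inhibitors, and is known for its high level in macrophages, hepatocytes and fibroblasts. It was at 0.26, 0.42 and 0.43 TPM in WT replicates 1 to 3 and at 0.65, 0.65 and 0.97 TPM in KO replicates 1 to 3. All libraries labelled KO were above those labelled WT, at a TPM ratio of 2.05 (exact permutation test, two-sided, p = 0.1). The log2 fold change of Lrp1 was 0.36 with a pseudocount of 1 (95% interval 0.12 to 0.60, unadjusted p = 0.011, limma adjusted p = 0.221 over 23220 genes, of which 0.0129% were called) and 0.87 with a pseudocount of 0.1 (limma adjusted p = 0.245). For Lrp12 it was −0.06 (limma adjusted p = 0.649), with groups that overlapped. No fold is given for Vldlr, since its WT libraries were listed at 0.
Counted by overlap, the libraries labelled KO were all above those labelled WT for Lrp5, Lrp4 and Lrp1, and all below for 0 members. Among the 6 members that passed the filter this was so for 2, where 17.4% of all genes tested had no overlap in this direction. In the opposite direction it was 12.3%. Among all genes above 0 TPM in any library, to which the count of 3 with Lrp1 belongs, it was 12.9% with the label KO higher and 6.72% with it lower.

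Other values moved with these differences. The share of reads in introns was 10.6% to 11.2% in the libraries labelled KO and 7.78% to 9.0% in those labelled WT. The share in ribosomal RNA was 1.2% and 1.3% in WT replicates 1 and 2, whereas WT replicate 3 had 3.3% and the libraries labelled KO had 2.69% to 2.98%. Across 8769 genes, the deviation of a library from the mean of all 6 had a Spearman correlation with transcript GC content of −0.61 in WT replicate 1 and −0.43 in WT replicate 2, and of 0.33 to 0.44 in the other libraries. The members of highest GC content were Lrp10 (58.7%), Lrp5 (58.6%) and Lrp1 (57.9%), and the lowest were Vldlr (43.8%) and Lrp6.
The trends of each library with GC content and with transcript length were then removed together, and neither was removed alone. After this, the log2 fold change of Lrp5 was 0.15 (95% interval −0.02 to 0.32, limma adjusted p = 0.240) and that of Lrp1 was 0.16 (limma adjusted p = 0.290). Lrp8, with a GC content of 47.4%, then had 0.14. Lrp6, Lrp4, Sorl1 and Lrp10 had 0.03, 0.0094, 0.0043 and −0.0014.
WT replicate 3, which was nearest to the libraries labelled KO in these measures, also held the highest WT level of Lrp5, Lrp6, Lrp1, Lrp4, Lrp10 and Sorl1. With WT replicate 3 as the only WT library, the fit of Lrp5 gave 0.23 on the log2 scale (limma adjusted p = 0.417), Lrp6 0.07 and Lrp1 0.29, whereas Sorl1 had −0.0057 and Lrp10 −0.20. Lrp8, which was lowest in that library among those labelled WT, had 0.37 (95% interval 0.07 to 0.66, limma adjusted p = 0.257). In this fit the spread comes from the 3 libraries labelled KO alone, and the single WT library is assumed to vary as they do. Without WT replicate 3, Sorl1 had 0.30 and was called (limma adjusted p = 0.0291), Lrp10 had 0.31 (limma adjusted p = 0.0581) and Lrp5 0.36 (limma adjusted p = 0.0518), in a fit that called 1920 genes, or 19.6% of those tested.

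**Figure D4:**
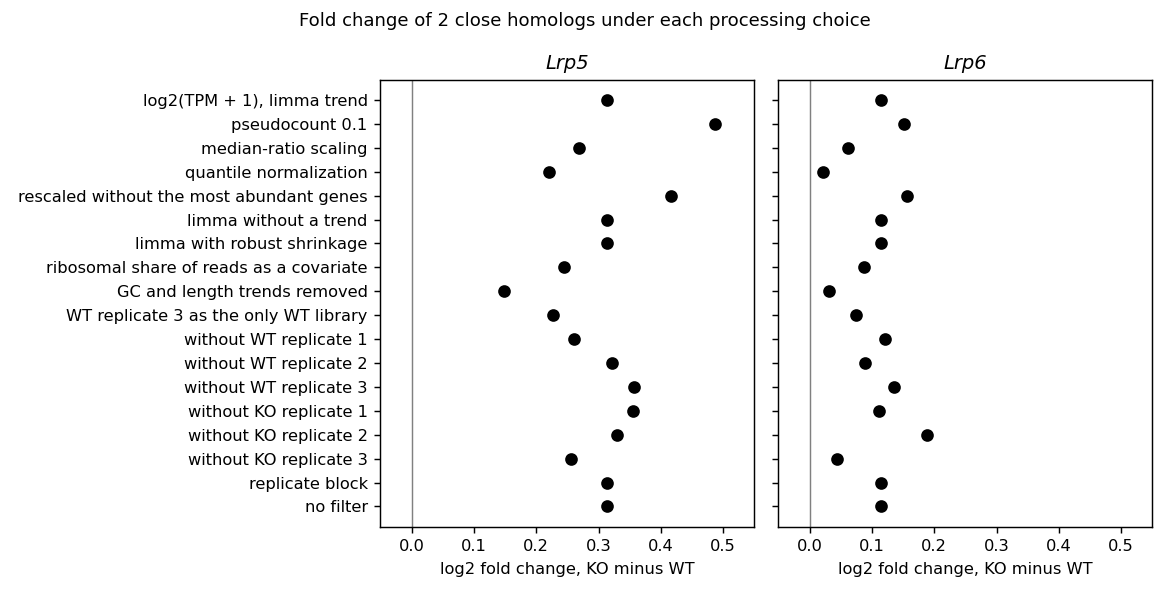
Log2 fold change, KO minus WT by label, of Lrp5 (left) and Lrp6 (right) under each processing choice, 1 point per fit. Lrp5 ranges from 0.15 with GC and length trends removed to 0.49 with a pseudocount of 0.1, and Lrp6 from 0.02 to 0.19.

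Lrp1 is abundant in macrophages, and marker genes were therefore set beside it. The neutrophil markers Ly6g, S100a8 and S100a9 stood at 920 TPM or more in every library. All 12 neutrophil markers were tested and 0 were called. Without overlap, 2 were higher under the label KO (Camp and S100a9) and 2 lower (Mmp8 and Cxcr2). In all genes tested, the shares were 17.4% and 12.3%. In bulk RNA, fewer cells of a type and less RNA per cell cannot be told apart. Of 11 monocyte and macrophage markers 0 were listed at 0 throughout, 8 were tested and 0 were called, 6 of them with a log2 fold change above 0. Their summed level was 571 to 732 TPM in the libraries labelled WT and 645 to 699 TPM in those labelled KO, most of it Ly6c2. Of the 8 tested, 4 were higher in each library labelled KO than in any labelled WT (Adgre1, C1qa, C1qb and C1qc), a pattern found in 17.4% of all genes tested, and C1qb was at 2.54 ± 0.12 TPM (SD, n = 3) under the label WT and 3.82 ± 0.27 TPM (SD, n = 3) under the label KO. Ly6c2, F13a1 and Ccr2 had log2 fold changes of 0.01, −0.02 and −0.10. Cx3cr1, under the filter, was at 0.24 to 0.35 TPM under the label WT and lower, at 0.19 to 0.21 TPM, under the label KO. The part of these cells in the Lrp1 difference was not tested. Of the 5 markers of eosinophils, basophils and mast cells 2 were tested. Prg2, which encodes the major basic protein of eosinophil granules, was called, with 1.02 ± 0.16 TPM (SD, n = 3) under the label WT and 2.79 ± 0.41 TPM (SD, n = 3) under the label KO (limma adjusted p = 0.0341). Mcpt8, the other one tested, had −0.05. Ms4a2, under the filter, was at 0.32 to 0.44 TPM under the label WT and 0.20 to 0.25 TPM under the label KO. Epx, also under the filter, was at 0 to 0.034 TPM under the label WT and 0.067 to 0.14 TPM under the label KO. The groups overlapped for Cpa3, the last gene of the list.

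The genes that work with the family were followed in 5 lists of 110 genes, of which 39 were tested and 0 were called by limma, with a median log2 fold change of 0.07. All are given by role, with the 3 of highest level in each list.
Besides these lists, 8 other receptors with LDLa repeats were below 1 TPM in every library. Ldlrad3 was at 0.40 to 0.49 TPM under the label WT and 0.75 to 0.97 TPM under the label KO without overlap, and Ldlrad4 was below 0.22 TPM throughout.
Of the Vps10 relatives of Sorl1, Sort1, which encodes sortilin, was at 80.4 to 95.9 TPM over all libraries, with a log2 fold change of −0.02 (adjusted p = 0.885 in limma), and Sorcs1, Sorcs2 and Sorcs3 were near or at 0.

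**Figure D5:**
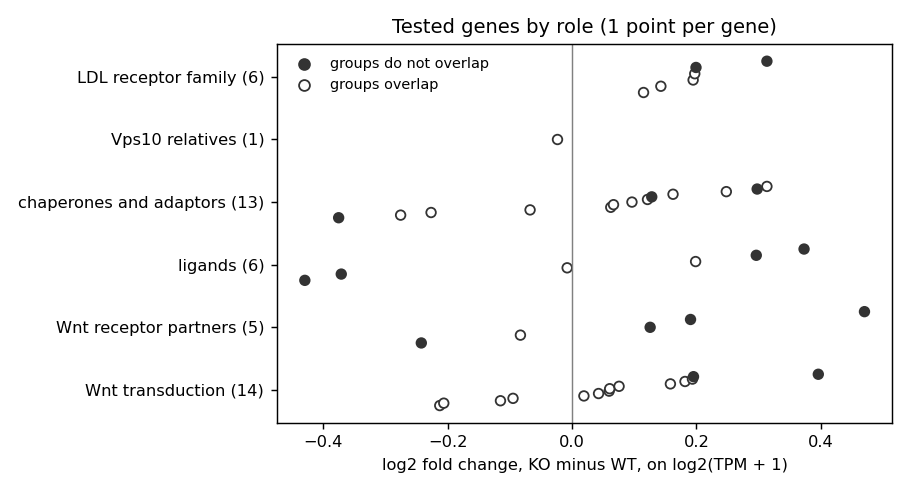
Log2 fold change, KO minus WT by label, of every tested gene by role, with the number of genes in parentheses; filled points are genes whose groups do not overlap. Fold changes lie between −0.43 for App and 0.47 for Kremen1, and points of most roles fall on both sides of 0, while all 6 members of the LDL receptor family that passed the filter are above it.

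Among 19 chaperones, adaptors and regulators 13 were tested, 9 of them with a log2 fold change above 0, as had 58.8% of all genes tested. Without overlap, 2 were higher under the label KO (Mesd and Mylip) and 1 lower (Vps35), beside 17.4% and 12.3% of all genes tested. Those of highest level were Picalm, a clathrin assembly protein gene, Pacs1, a sorting adaptor gene, and Vps35, the core of the retromer that returns SORL1 from endosomes. Their log2 fold changes were −0.07, 0.10 and −0.38 (limma adjusted p = 0.676, 0.639 and 0.141). Vps35 was at 113.5, 106.5 and 82.3 TPM in WT replicates 1 to 3 and at 77.6, 77.3 and 75.3 TPM in KO replicates 1 to 3. The WT libraries thus varied more among themselves than those labelled KO, which lay below them all. The chaperones of the family were low, with Lrpap1, which encodes the receptor-associated protein, at 7.01 TPM and Mesd, needed for folding of LRP5 and LRP6, at 2.22 TPM in the mean of all libraries. Mylip, which encodes a ubiquitin ligase that marks receptors of the family for degradation, was picked after its values were seen. It was at 34.6 to 35.1 TPM under the label WT and 41.6 to 45.4 TPM under the label KO (log2 fold change 0.30, limma adjusted p = 0.0907).

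Ligands of the family were mostly not detected. Of 39 ligand genes 33 were below 1 TPM in every library and 21 were listed at 0 throughout, among them Dkk1 and Sost, which encode inhibitors of LRP5 and LRP6, and most Wnt genes. Thbs1, which encodes the LRP1 ligand thrombospondin 1, was at 484.0, 472.0 and 557.7 TPM in WT replicates 1 to 3 and at 574.7, 617.1 and 665.6 TPM in KO replicates 1 to 3, without overlap (log2 fold change 0.30, limma adjusted p = 0.133). App, whose product is cargo of SORL1, was at 237.2, 219.4 and 231.5 TPM in WT replicates 1 to 3 and at 161.4, 167.3 and 181.7 TPM in KO replicates 1 to 3. This was the largest decrease among the tested genes of these lists, at a log2 fold change of −0.43, and missed the threshold (limma adjusted p = 0.0587). Calr, which encodes calreticulin, a chaperone that also binds LRP1, was at 144.2 ± 6.65 TPM (SD, n = 3) under the label WT and 111.2 ± 3.17 TPM (SD, n = 3) under the label KO (log2 fold change −0.37, limma adjusted p = 0.0648). Of the 6 ligand genes tested, 2 had libraries labelled KO all above and 2 all below those labelled WT, beside 17.4% and 12.3% of all genes tested.

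At the Wnt receptor, 24 of 29 genes were below 1 TPM in every library. Fzd5 was the only Frizzled gene that passed the filter, at 1.74 to 1.92 TPM under the label WT and 2.13 to 2.29 TPM under the label KO (log2 fold change 0.19, limma adjusted p = 0.193), and was picked after its values were seen. Of the genes of highest level, Atp6ap2, a V-ATPase accessory gene, had a log2 fold change of −0.24, and Wls, which carries Wnt proteins out of the cell, had 0.13 (limma adjusted p = 0.127 and 0.316). Kremen1, a receptor for Dickkopf proteins that removes LRP6 from the surface, was at 2.59, 2.98 and 3.60 TPM in WT replicates 1 to 3 and at 4.31, 4.53 and 4.94 TPM in KO replicates 1 to 3. The groups were well apart, and the log2 fold change of 0.47 was the largest increase in these lists (limma adjusted p = 0.0956). Of the 5 genes tested, 3 were higher and 1 lower without overlap, beside 17.4% and 12.3% of all genes tested.
Below the receptor 14 of 19 genes were tested. Without overlap, 2 were higher under the label KO (Dvl1 and Btrc) and 0 lower, beside 17.4% and 12.3% of all genes tested. Their log2 fold changes were 0.40 and 0.20 (limma adjusted p = 0.0892 and 0.201). Gsk3a, Csnk1e and Ctnnb1, which encodes β-catenin, were highest, with log2 fold changes of 0.02, 0.06 and 0.18 (limma adjusted p = 0.901, 0.708 and 0.444). Ctnnb1 was at 47.3 to 49.0 TPM under the label WT, and its libraries labelled KO, at 52.4, 46.2 and 68.6 TPM, spread on both sides. Axin2, Lef1, Tcf7 and other genes of this list, 5 in all, were below 1 TPM in every library.

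The genes most like Lrp5 in their course over the 6 libraries, by the smallest mean absolute difference of centred log2(TPM + 1) among 9774 genes, were Lrsam1, Gtf3c1 and Adh5, at distances of 0.021 each. Lrsam1, which encodes a ubiquitin ligase, was at 7.43, 8.14 and 8.71 TPM in WT replicates 1 to 3 and at 9.30, 9.96 and 10.8 TPM in KO replicates 1 to 3. Its libraries ranked in the same order as those of Lrp5. Those most like Lrp6 were Shprh, Fyco1 and Taf3, at 0.012, 0.014 and 0.019. Shprh shared with Lrp6 the highest level in KO replicate 3, at 3.94 TPM, and the lowest in WT replicate 2, at 2.95 TPM. All of these genes were chosen for closeness in the same libraries, so a shared order follows from the choice and is no test.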

How the data were processed

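The authors deposited a table of TPM for 6 libraries, with a total of 1000000 in each library, and a read summary with counts of reads, percent of reads per class, coverage ratios at each transcript end and the read length. Per the labels and methods reads were aligned to mm9 and the DESeq2 pipeline was named for quantification. The tool that gave TPM is not given in the sources used here, and identifiers carry later versions than GENCODE M1. Read counts per gene were not used here, and hence no count model. Genes whose mean reached 1 TPM were tested in R 4.3.3 with limma 3.58.1 on log2(TPM + 1), using its mean-variance trend, no covariates and Benjamini-Hochberg adjustment over all genes tested. The main fit was tested on simulated data in which the noise of each gene was drawn on its own. That test does not cover trends that genes share within a library, such as that with GC content. Single values were compared by exact permutation tests (SciPy 1.17.1). For the removal of trends, the deviations of each library were fitted on GC content and length of the longest protein-coding transcript in GENCODE M1 (natural splines, 4 degrees of freedom), which covered 89.7% of genes tested. Members and lists were chosen with earlier results of these data known. The genes named were all members, Lyz2, the 3 of highest level and any called in each list, and the 3 tested genes nearest to Lrp5 and to Lrp6. All other genes named were picked after their values were seen or mark a cell type. Alternatives were a pseudocount of 0.1, other filters, scalings, models and covariates, each library left out and the replicate number as a block. Sequences of proteins were not used here, and 1 gene of the lists is not reported here.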

Additional observations from a re-analysis of the deposited data

How the results depend on the processing

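Both the number of genes called and the values of the family depended on the processing. Beside 52 genes (26 of them higher under the label KO), median-ratio scaling gave 83 (36.1% higher), rescaling without the most abundant genes 96 (71.9% higher), the ribosomal share as a covariate 6, removal of GC and length trends 430 (36.5% higher), WT replicate 3 alone (its spread taken from the libraries labelled KO) 6, a mean of at least 5 TPM 29 and no filter 3. Leaving out 1 library gave 2 to 1920 genes: 18, 3 and 1920 without WT replicates 1, 2 and 3 and 2, 15 and 2 without KO replicates 1, 2 and 3. The number of members called was then 0 to 1, the 1 being Sorl1 without WT replicate 3. The causes were not tested.
The log2 fold change of Lrp5 was 0.26 to 0.36 and that of Lrp8 0.11 to 0.35 with 1 library left out. Removal of GC and length trends brought Sorl1 to 0.0043 and Lrp4 to 0.0094. With 1 library left out, the limma adjusted p of Lrp5 was between 0.0518 and 0.335. Lrp10 changed direction with the ribosomal share as a covariate (−0.10), with trends removed (−0.0014) and with WT replicate 3 as the only WT library (−0.20), and Sorl1 in the last of these (−0.0057). The difference in the ratio of Lrp6 to Lrp5 was −0.24 to −0.14 with 1 library left out and −0.33 with a pseudocount of 0.1. With the ribosomal share as a covariate, chosen after the data had been seen, it was −0.16.
With the replicate number as a block 4 genes and 0 members were called. By their labels, same-numbered libraries share a number, and whether they share more was not tested. Their deviations correlated at 0.23, −0.0075 and 0.13 for replicates 1, 2 and 3. WT replicates 1 and 3 correlated best with their own number, and WT replicate 2 did not.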
